A study of Mus musculus with 35 samples.

Results

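A set of 10 genes that mark Sertoli cells, the somatic nurse cells of the seminiferous tubule, were followed through RNA libraries made from mouse male germ cells. They were Sox9, Wt1, Gata4, Rhox5, Fshr, Dhh, Inha, Inhbb, Clu and Cldn11, taken by symbol as 10 of the 24411 gene rows in the deposited count tables. The libraries came from pachytene spermatocytes (Spc) and round spermatids (RS) enriched from adult testes on a BSA gradient by velocity sedimentation, and from chromatoid bodies (CB), the RNA granules of round spermatids, isolated with an antibody to DDX4. Smg6-cKO mice were Smg6(fx/fx);Ngn3Cre+, so that Cre under the Neurogenin 3 promoter deleted the floxed exon 9 in germ cells. Controls (CTRL) were littermates without Cre, Smg6(fx/fx);Ngn3Cre– or Smg6(fx/wt);Ngn3Cre–. All groups therefore carried at least 1 floxed allele, and all were on a mixed C57Bl/6J and SV129 background. There were 3 libraries per genotype for Spc and for RS, and 4 CTRL and 3 Smg6-cKO libraries for CB, each CB library being a pool of mice. Spc and RS libraries were made from poly(A) RNA and CB libraries from total RNA with another kit, so levels are compared only between Spc and RS and only within CB.

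Sertoli cells anchor developing germ cells, form the blood-testis barrier through tight junctions, and answer follicle-stimulating hormone and androgen. The Cre used here acts in the germ line and not in Sertoli cells. Sertoli cell transcripts in an enriched germ cell preparation can come from Sertoli cells or fragments of them, and some of these genes are also expressed in Leydig cells or germ cells.

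On the GRCm38 assembly with GENCODE annotation, all 10 are protein-coding genes and counts were taken over their exons. Sox9 lies at chr11:112782224-112787760, Wt1 at chr2:105126529-105173616, Gata4 at chr14:63198922-63271692 and Rhox5 at chrX:37804842-37808876. Fshr lies at chr17:88984952-89200675, Inha at chr1:75507077-75510366 and Inhbb at chr1:119415465-119422248. Dhh lies at chr15:98891152-98898540, Clu at chr14:65968483-65981547 and Cldn11 at chr3:31149920-31164324. Among them only Dhh overlaps another gene model on its strand.

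The Spc and RS libraries held 38129415 to 49940226 counts and the CB libraries 3965541 to 16699210, so that the members were counted less precisely in CB. Levels are given as CPM, gene counts scaled to a common library total, with TMM factors that offset differences in composition between libraries. The scaling mattered most in CTRL RS, whose factors were 0.716 to 0.767 against 1.00 to 1.18 in the other Spc and RS libraries. The 10 spermatocyte genes, among them Piwil1, summed to 1919 to 2241 CPM in CTRL Spc and 644 to 711 CPM in CTRL RS, and the spermatid genes included Prm2. The summed level of 10 spermatid genes was 18768 to 25553 CPM in CTRL RS but 1622 to 1719 CPM in Smg6-cKO RS. Smg6 counts did not show the deletion, with 109 to 172 CPM in CTRL Spc and 182 to 189 CPM in Smg6-cKO Spc. A count over the whole gene does not resolve exon 9 and so does not check the labels.

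The 10 genes were detected in every Spc and RS library, and by group mean each was highest in CTRL Spc. Their summed level was 300.1, 797 and 656 CPM in CTRL Spc 1, 2 and 3, which is 0.0323% to 0.0902% of all gene counts. It was 168, 191 and 254 CPM in the 3 Smg6-cKO Spc libraries, all below the lowest control. In RS the order was the opposite, with 64.0, 69.8 and 56.5 CPM in CTRL and 148, 75.3 and 224 CPM in Smg6-cKO. Without Clu the groups overlapped in RS, with 21.4, 22.6 and 19.95 CPM in CTRL and 49.0, 21.7 and 62.4 CPM in Smg6-cKO, but not in Spc. The CTRL Spc libraries thus differed widely from one another while the CTRL RS libraries lay close together, and Smg6-cKO RS 2 stood near the controls. Clu made up most of each sum, 71.8% to 74.5% in CTRL Spc. In these bulk samples fewer Sertoli cells and less of their RNA per cell cannot be told apart.

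**Figure D1:**
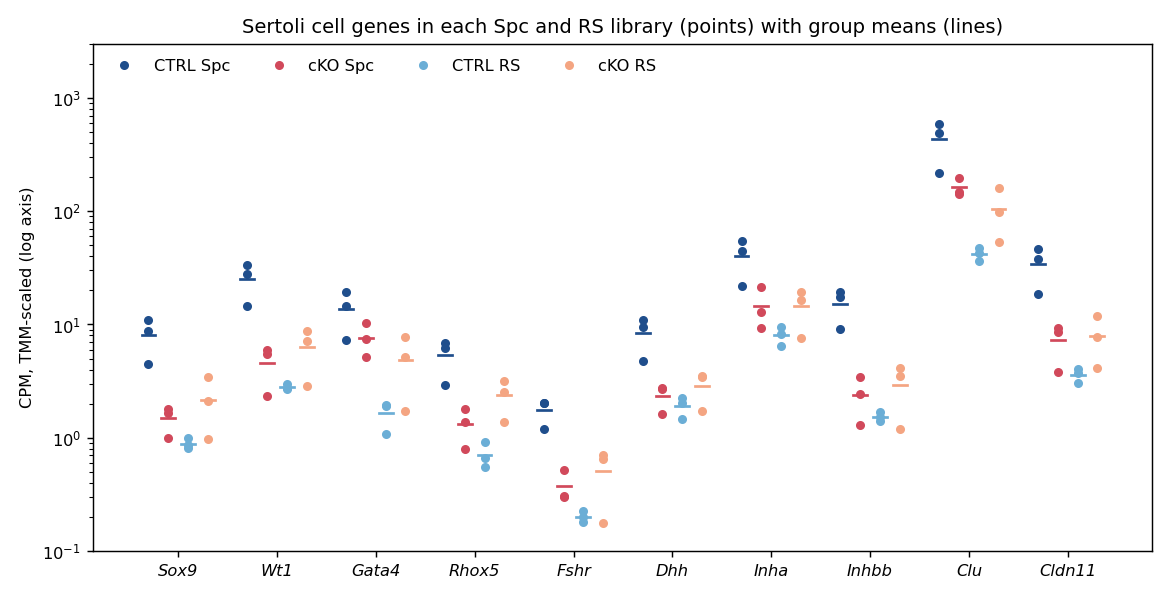
Level of each of the 10 Sertoli cell genes in CPM on a log axis, with 1 point per library and a line at the group mean, for CTRL Spc, Smg6-cKO Spc, CTRL RS and Smg6-cKO RS (3 libraries each). CTRL Spc is highest for every gene by its mean and CTRL RS lowest, with the Smg6-cKO groups between them.

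In length-scaled levels (CPM per kb of exon), the order in CTRL Spc was led by Clu at 126 ± 56.7 (SD, n = 3), Inha at 27.3 ± 11.4 and Cldn11 at 18.3 ± 7.56. The SD is a spread between libraries, in which the genes rose and fell together. Within each CTRL Spc library Inha had more counts than Cldn11, at 936, 2934 and 2172 against 799, 2472 and 1859. With its shorter exon length, 1.48 kb against 1.87 kb, Inha was thus higher per kb in each library. Rhox5 followed at 7.08 ± 2.82, then Wt1 at 4.06 ± 1.55, Inhbb at 3.59 ± 1.28 and Gata4 at 3.53 ± 1.56. The last 3 overlapped in their spread between libraries, which says nothing about their order within a library. Sox9 at 1.95 ± 0.803 and Dhh at 1.91 ± 0.743 were alike, and Fshr was lowest at 0.741 ± 0.206. Clu, Inha and Cldn11 were also the 3 highest by this measure in CTRL RS, at 12.3 ± 1.56, 5.45 ± 0.990 and 1.92 ± 0.263.

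The first comparison asked how the Spc preparations of Smg6-cKO and CTRL mice differed. By edgeR's quasi-likelihood test, 9 of the 10 genes were lower in Smg6-cKO Spc at an adjusted p of at most 0.05 and none was higher, where 14.1% of the 17321 genes tested were lower. All 9 also passed a limit of 1.5 on the log2 fold change, which 5.10% of genes did in that direction. The groups did not overlap for the same 9 genes, against 17.6% of all genes. The members' median log2 fold change was -2.21, and that of all genes tested was -0.01. These genes were taken up with their direction in Spc and in RS already known. The counts and p-values for Spc and RS therefore describe the size of the differences and are no independent support.

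Among the transcription factors, Sox9, which directs Sertoli cell fate, was at 4.47, 11.02 and 8.69 CPM in CTRL Spc and at 0.984, 1.80 and 1.66 CPM in Smg6-cKO Spc. It fell by 2.53 ± 0.40 (SE) on the log2 scale, a 5.79-fold difference (adjusted p = 0.0067, edgeR). Wt1, a zinc finger factor needed to keep Sertoli cell identity, was at 14.5, 33.2 and 27.7 CPM against 2.32, 5.49 and 5.92 CPM. Both genes were thus low in every Smg6-cKO Spc library, and the log2 fold change of Wt1 was -2.55 ± 0.44 (adjusted p = 0.0086, edgeR). Rhox5, an X-linked homeobox gene that androgen induces in Sertoli cells, was at 2.91, 6.86 and 6.25 CPM against 0.793, 1.78 and 1.37 CPM, a log2 fold change of -2.11 ± 0.42 (adjusted p = 0.014, edgeR).

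Gata4 was the exception. This zinc finger factor, which Leydig cells also express, was at 7.31, 19.4 and 14.6 CPM in CTRL Spc and at 7.46, 5.12 and 10.2 CPM in Smg6-cKO Spc. Smg6-cKO Spc libraries 1 and 3 lay above the lowest control, so the groups overlapped. Its log2 fold change was -0.96 ± 0.38 and did not pass (adjusted p = 0.10, edgeR).

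Fshr, the receptor for follicle-stimulating hormone, and the inhibin subunits Inha and Inhbb belong to 1 endocrine loop, since inhibin from Sertoli cells lowers the pituitary's output of that hormone. Their RefSeq promoter windows (GRCm38.p6, 250 bases before to 50 after the annotated start, 5′ to 3′ on the gene's strand) are shown because the 3 genes belong to this loop and were all lower in Smg6-cKO Spc. The Inha window (chr1:75507359-75507658, + strand) starts inside the GENCODE gene model, which begins at 75507077. The Inhbb window is chr1:119422199-119422498 on the - strand, and the Fshr window chr17:89200626-89200925 on the - strand. Capitals mark matches, on either strand, to 1 of 5 motifs, none of which contains another. The GATA motif was read as AGATAA and also as AGATAG, besides the forms TGATAA and otherwise TGATAG. The SOX motif was read as ACAAAG and also as ACAATG. The E-box was CACGTG, while the NR5A1 motif was AAGGTCA, and the GC box was GGGCGG.
Inha: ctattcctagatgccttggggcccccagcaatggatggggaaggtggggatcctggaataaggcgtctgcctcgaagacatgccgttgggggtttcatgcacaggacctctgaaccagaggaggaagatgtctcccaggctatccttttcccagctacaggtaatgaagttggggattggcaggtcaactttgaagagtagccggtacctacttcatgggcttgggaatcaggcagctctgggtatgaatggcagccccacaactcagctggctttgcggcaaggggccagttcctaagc
Inhbb: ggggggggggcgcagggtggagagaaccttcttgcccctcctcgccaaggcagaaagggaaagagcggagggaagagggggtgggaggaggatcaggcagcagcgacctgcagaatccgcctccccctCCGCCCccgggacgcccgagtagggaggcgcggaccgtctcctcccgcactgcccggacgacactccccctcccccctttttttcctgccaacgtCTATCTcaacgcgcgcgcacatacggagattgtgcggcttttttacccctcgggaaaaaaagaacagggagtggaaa
Fshr: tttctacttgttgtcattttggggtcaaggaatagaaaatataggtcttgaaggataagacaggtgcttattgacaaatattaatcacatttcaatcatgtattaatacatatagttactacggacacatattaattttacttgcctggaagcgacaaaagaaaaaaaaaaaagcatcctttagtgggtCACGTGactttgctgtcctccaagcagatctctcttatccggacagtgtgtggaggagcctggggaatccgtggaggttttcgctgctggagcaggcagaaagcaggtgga

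In the Fshr window the E-box began 61 bases before the start. Inhbb held a GC box 122 bases and a GATA motif 27 bases before its start, both read on the other strand, and Inha held none of the 5 motifs. With the windows of Cldn11 and Dhh added, the motifs were found in 1 of 5 members for GATA, 0 for SOX, 1 for the E-box, 0 for NR5A1 and 3 for the GC box. Only these 5 members were searched. Rhox5 was set aside before the search, and the remaining members were not searched either. Of all 32817 RefSeq windows, 29.8% held the GATA, 28.6% the SOX, 7.15% the E-box, 4.72% the NR5A1 and 35.6% the GC box letters. No motif was therefore shared by all 5 windows.

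Fshr was at 1.19, 2.03 and 2.03 CPM in CTRL Spc and at 0.301, 0.307 and 0.514 CPM in Smg6-cKO Spc, a log2 fold change of -2.31 ± 0.36 (adjusted p = 0.0067, edgeR). Inhbb, which gives the beta B subunit of inhibin B, was at 9.06, 19.2 and 17.6 CPM against 1.28, 2.44 and 3.40 CPM. Its log2 fold change of -2.77 ± 0.43 was the largest in size among the members (adjusted p = 0.0064, edgeR). Inha, the alpha subunit, was at 21.8, 54.7 and 44.5 CPM against 9.24, 12.8 and 21.5 CPM. The highest Smg6-cKO Spc library for Inha came close to the lowest control, and its log2 fold change was -1.57 ± 0.41 (adjusted p = 0.030, edgeR).

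Dhh, the hedgehog ligand through which Sertoli cells signal to Leydig and peritubular cells, was at 4.73, 11.004 and 9.44 CPM in CTRL Spc and at 1.61, 2.74 and 2.71 CPM in Smg6-cKO Spc. It fell by 1.93 ± 0.37 on the log2 scale (adjusted p = 0.012, edgeR), and its gene model overlaps Rhebl1 on the same strand, so its counts are uncertain. Clu, a secreted chaperone abundant in Sertoli cells, was at 216, 593 and 487 CPM against 141, 149 and 198 CPM. The log2 fold change of Clu was -1.51 ± 0.34 (adjusted p = 0.020, edgeR), smaller than that of most members. Cldn11, a claudin of the blood-testis barrier, was at 18.6, 46.1 and 38.1 CPM against 3.80, 9.40 and 8.51 CPM, a log2 fold change of -2.33 ± 0.44 (adjusted p = 0.011, edgeR).

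The count of 9 lower genes depended on single libraries. It was 5 of 10 without Smg6-cKO Spc 1 and 6 to 10 without any other, and no member changed sign. With DESeq2 all 10 genes were lower, Gata4 included.

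**Figure D2:**
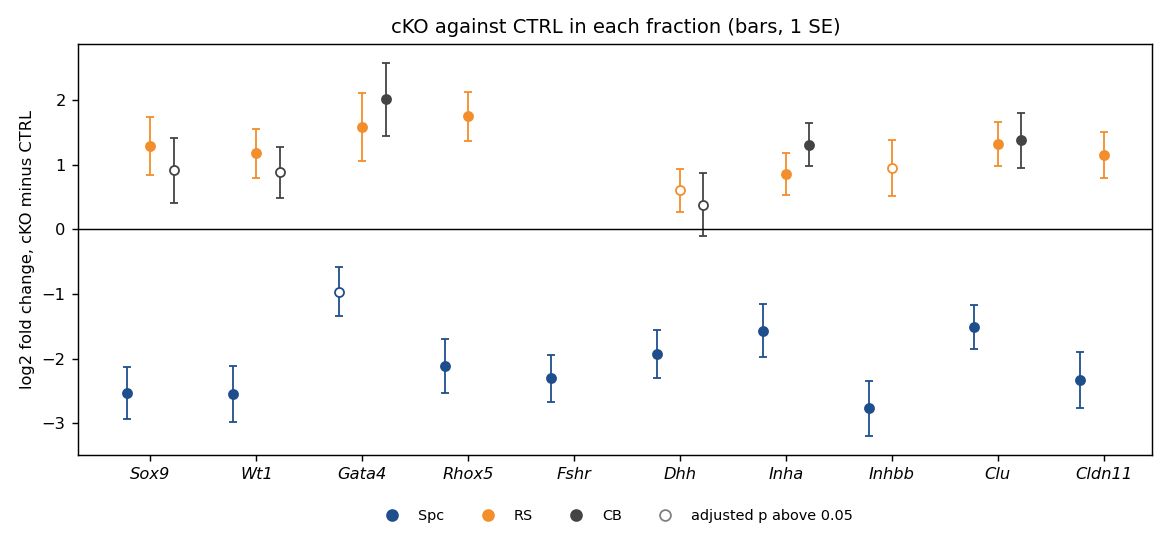
Log2 fold change of Smg6-cKO over CTRL for each gene in Spc, RS and CB, with bars of 1 SE from edgeR and open symbols for an adjusted p above 0.05. All Spc values lie below 0 and the RS and CB values plotted lie above it; a gene with no RS or CB symbol was below the count filter.

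The second comparison was of the RS preparations, where the direction was likewise known beforehand. Here 9 members passed the count filter, and 7 of them were higher in Smg6-cKO RS (adjusted p of at most 0.05, edgeR) with none lower, where 38.4% of the 17492 genes tested were higher. Only Gata4 and Rhox5 also passed the limit of 1.5, against 14.8% of all genes. The members' median log2 fold change was 1.18 and that of all genes 0.11. For 3 of the 10 members the groups did not overlap in this direction, which is no greater a share than the 39.9% of all genes. Fshr was below the filter, with 6 to 7 counts per CTRL library and 8 to 36 per Smg6-cKO library.

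Sox9 was at 0.806, 0.999 and 0.856 CPM in CTRL RS and at 2.09, 0.964 and 3.41 CPM in Smg6-cKO RS. Its log2 fold change was 1.29 ± 0.45 (adjusted p = 0.030, edgeR), with Smg6-cKO RS 2 within the control range. Wt1 behaved alike, at 2.69, 2.97 and 2.73 CPM against 7.21, 2.87 and 8.74 CPM, a log2 fold change of 1.18 ± 0.38 (adjusted p = 0.021, edgeR). Gata4 was at 1.07, 1.90 and 1.94 CPM against 5.15, 1.71 and 7.76 CPM and rose by 1.59 ± 0.52 (adjusted p = 0.023, edgeR). For these 3 factors library 2 alone lay inside the control range. Rhox5 was at 0.657, 0.548 and 0.922 CPM against 2.53, 1.38 and 3.19 CPM. Every Smg6-cKO RS library exceeded every control for Rhox5, whose log2 fold change of 1.75 ± 0.38 was the largest among the members (adjusted p = 0.0036, edgeR).

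Inha was at 9.43, 8.16 and 6.52 CPM in CTRL RS and at 16.6, 7.63 and 19.2 CPM in Smg6-cKO RS, a log2 fold change of 0.86 ± 0.32 (adjusted p = 0.040, edgeR). Inhbb was at 1.40, 1.52 and 1.68 CPM against 3.52, 1.18 and 4.10 CPM. Library 2 lay within the control range for Inha and below every control for Inhbb, which did not pass with a log2 fold change of 0.95 ± 0.43 (adjusted p = 0.077, edgeR). Dhh did not pass either, at 1.46, 2.22 and 2.04 CPM against 3.48, 1.71 and 3.45 CPM and with a log2 fold change of 0.61 ± 0.33 (adjusted p = 0.13, edgeR). Fshr was at 0.179, 0.226 and 0.198 CPM against 0.654, 0.175 and 0.709 CPM.

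Clu and Cldn11 were the other members without overlap. Clu was at 42.6, 47.2 and 36.5 CPM in CTRL RS and at 98.6, 53.6 and 161 CPM in Smg6-cKO RS, a log2 fold change of 1.33 ± 0.34 (adjusted p = 0.0081, edgeR). Cldn11 was at 3.70, 4.03 and 3.06 CPM against 7.76, 4.10 and 11.9 CPM. Cldn11 rose by 1.15 ± 0.36 on the log2 scale (adjusted p = 0.019, edgeR), with library 2 just above the highest control.

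Smg6-cKO RS 2 decided much of the RS count: without it all 9 tested members were higher. Leaving out Smg6-cKO RS 1 or 3, or CTRL RS 2 or 3, gave 3 and leaving out CTRL RS 1 gave 2, with all 9 still positive. With the replicate number as a block, 3 members were higher. Scaling by library size in place of TMM gave 9 of 9, and it moved the median of all genes in RS to 0.73. Relative to the median of all genes the members stood at 1.08 with library size and at 1.07 with TMM. Of all calls in RS, 52.8% were higher with TMM and 76.0% with library size.

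In CTRL, several members kept similar proportions to one another in Spc and in RS. Taking Wt1 as the reference in each library, Sox9 stood at 0.309 to 0.332 per Wt1 count in CTRL Spc and at 0.300 to 0.337 in CTRL RS. Cldn11 stood at 1.28 to 1.39 and 1.12 to 1.38, and Clu at 14.9 to 17.9 and 13.4 to 15.9. These ranges overlapped or lay close together while the levels differed as given for RS against Spc. Inha and Dhh were relatively higher in CTRL RS than in CTRL Spc, with Inha at 2.39 to 3.51 against 1.505 to 1.65 per Wt1 count and Dhh at 0.544 to 0.750 against 0.326 to 0.341.

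Smg6-cKO Spc differed in proportion for several members. Gata4 per Wt1 count was 3.21, 0.932 and 1.73 in Smg6-cKO Spc 1, 2 and 3 and 0.505 to 0.584 in CTRL Spc. Clu was at 60.5, 27.1 and 33.5 per Wt1 count, Inha at 3.98, 2.33 and 3.63, and each lay above its CTRL Spc range in all 3 libraries. Rhox5 at 0.231 to 0.341, Dhh at 0.458 to 0.694 and Cldn11 at 1.44 to 1.71 were also above their CTRL Spc ranges, and Inhbb at 0.444 to 0.575 was below its range of 0.578 to 0.635. Sox9 in contrast stayed at 0.281 to 0.424, a range that includes that of the controls. In Smg6-cKO RS, Gata4 was at 0.595 to 0.887, Clu at 13.7 to 18.7 and Inha at 2.196 to 2.66, which all overlapped with CTRL RS. Rhox5 at 0.351 to 0.481 lay above its CTRL RS range of 0.185 to 0.337, and Inhbb at 0.412 to 0.488 lay below its range of 0.511 to 0.614.

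**Figure D3:**
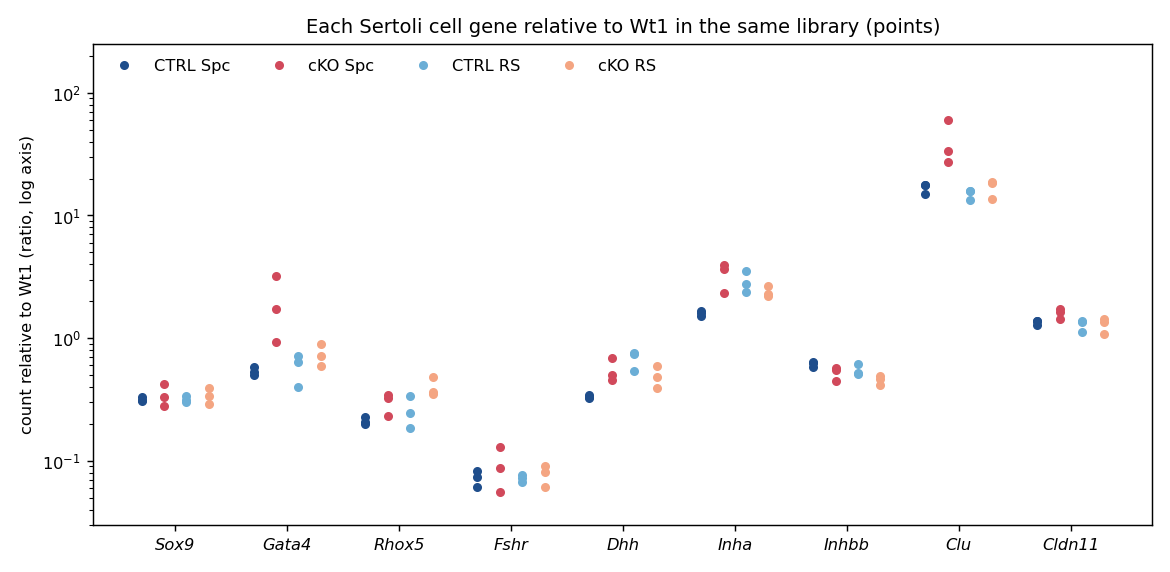
Counts of each of the other 9 genes relative to Wt1 in the same library, on a log axis, with 1 point per Spc or RS library. Gata4, Inha and Clu lie above their CTRL Spc values in the 3 Smg6-cKO Spc libraries, whereas Sox9 and Fshr overlap between all 4 groups.

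The third comparison set RS against Spc within each genotype. In CTRL, the 10 members were called lower in RS than in Spc (edgeR), where 39.7% of the 17046 genes tested were lower. All 10 passed the limit of 1.5, against 17.0% of genes, and none overlapped between the groups, against 37.9%. Fshr had only 6 to 7 counts per CTRL RS library and passed the count filter through Spc alone, where it was high, so its call was fixed by the filter and is no support. The log2 fold changes ran from -3.49 ± 0.37 for Clu (11.2-fold, adjusted p = 2.08e-04, edgeR) to -2.27 ± 0.35 for Dhh (4.81-fold, adjusted p = 8.06e-04, edgeR). Sox9 was 9.92-fold, Wt1 9.82-fold, Inhbb 10.9-fold and Cldn11 10.4-fold lower, and Inha with 5.48-fold was nearer to Dhh. The median was -3.27, against -0.08 for all genes with TMM and -0.54 with library size. Of all calls 47.7% were higher with TMM and 32.2% with library size.

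In Smg6-cKO, 0 of the 10 members passed between RS and Spc by edgeR, where 45.4% of the 17709 genes tested passed in either direction. None had an unadjusted p under 0.05, and DESeq2 also called 0. With the replicate number as a block, Gata4 and Clu were lower in RS, with log2 fold changes of -0.83 and -0.78. Of all calls 41.7% were higher with TMM and 55.0% with library size. The log2 fold changes were -0.68 ± 0.50 for Gata4, -0.67 ± 0.35 for Clu and -0.05 ± 0.40 for Inha, and lay between 0.09 and 0.81 for the other 7. Without Smg6-cKO RS 3, Clu was lower in RS with a log2 fold change of -1.12 (adjusted p = 0.018, edgeR).

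**Figure D4:**
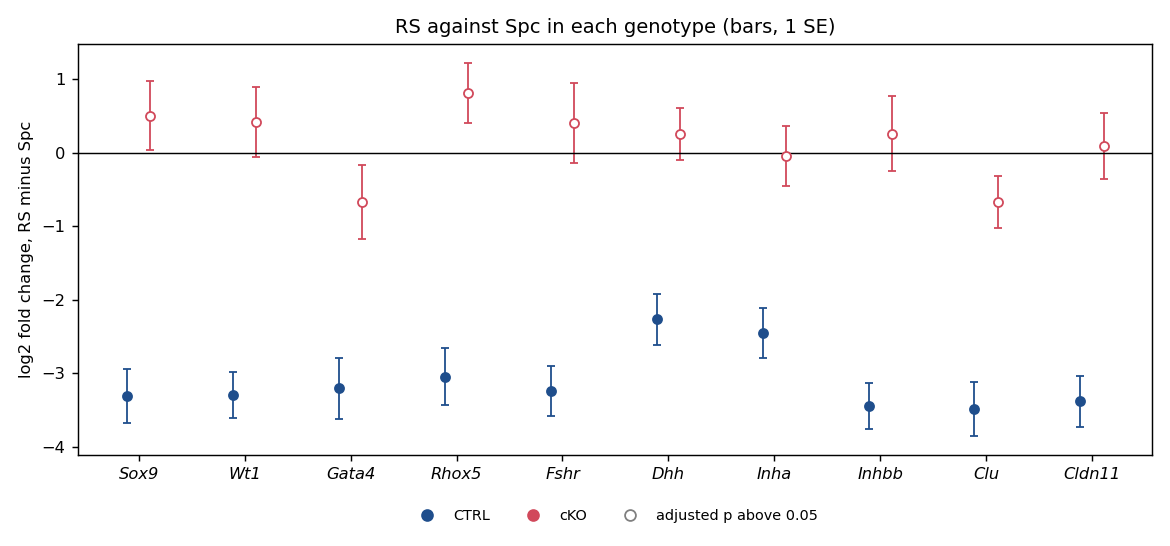
Log2 fold change of RS over Spc for each gene in CTRL and in Smg6-cKO, with bars of 1 SE from edgeR and open symbols for an adjusted p above 0.05. The CTRL values lie between -3.49 and -2.27 and the Smg6-cKO values between -0.68 and 0.81.

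The difference between the genotype effects in RS and in Spc was estimated as an interaction over the 12 libraries. These genes were taken up with their opposite direction in Spc and RS already known, so the interaction is given as a description of its size and not as a test of that pattern. All 10 members were positive and past the threshold (edgeR), where 19.0% of the 18171 genes tested were positive and passed. All 10 also passed the limit of 1.5, against 8.05% of genes. The interaction on the log2 scale ran from 2.32 ± 0.58 for Inha to 3.76 ± 0.60 for Rhox5, and Gata4 was 2.43 ± 0.72. The median was 3.47, against -0.13 for all genes with TMM and 0.58 with library size, and 44.2% of all calls were positive with TMM and 93.7% with library size. Without CTRL Spc 2 the count was 9 and without any other library 10. The comparisons within Spc, within RS and within each genotype share these 12 libraries and are not independent of one another.

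In the CB preparations the members were scarce. Their summed level was 26.2, 24.1, 35.7 and 26.3 CPM in the CTRL columns numbered 1, 2, 3 and 5 and 25.4, 83.8 and 86.1 CPM in the Smg6-cKO columns numbered 2, 3 and 4. These are column numbers and not sample numbers. Smg6-cKO CB column 2 stood at control level, and columns 3 and 4 well above it. The filter left 6 members, of which 3 were higher in Smg6-cKO CB (edgeR), where 18.1% of the 14051 genes tested were higher. Only Gata4 passed the limit of 1.5, against 5.69% of genes. The groups did not overlap for 3 of the 10 members, Wt1, Rhox5 and Inha, in a direction that 19.4% of all genes showed.

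Gata4 was at 0.742, 1.48, 3.89 and 1.45 CPM in CTRL CB and at 1.85, 10.1 and 9.46 CPM in Smg6-cKO CB, a log2 fold change of 2.01 ± 0.57 (adjusted p = 0.015, edgeR). Inha was at 3.09, 2.37, 3.20 and 2.97 CPM against 5.03, 10.6 and 6.79 CPM, a log2 fold change of 1.31 ± 0.33 (adjusted p = 0.0077, edgeR). All 3 Smg6-cKO CB libraries exceeded the controls for Inha but not for Gata4. Clu was at 13.5, 10.7, 20.8 and 15.6 CPM against 9.26, 50.2 and 57.9 CPM, a log2 fold change of 1.38 ± 0.43 (adjusted p = 0.022, edgeR). Smg6-cKO CB column 2 held less Clu than any control. Sox9, Wt1 and Dhh did not pass, with log2 fold changes of 0.92 ± 0.50, 0.89 ± 0.39 and 0.39 ± 0.49. Of the members below the filter, Rhox5 was at 0.618, 0.444, 0.915 and 0.580 CPM in CTRL CB and at 1.06, 0.921 and 1.43 CPM in Smg6-cKO CB. Inhbb was at 1.86, 1.18, 0.686 and 1.16 CPM against 0, 1.38 and 1.07 CPM, and Cldn11 at 0.618, 2.66, 0.915 and 1.38 CPM against 1.85, 0.921 and 1.07 CPM. The group means of Inhbb and Cldn11 were thus lower in Smg6-cKO CB, with overlap between the groups. Fshr had 1 count in all 4 CTRL CB libraries together and 0 in the 3 Smg6-cKO CB libraries, which allows up to 0.26 CPM over that group at 3 counts. Of all calls in CB 49.6% were higher with TMM and 38.1% with library size. The CB count was 1 without Smg6-cKO CB column 4 and 2 or 3 without any other library.

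Other genes of Sertoli cells were counted in 4 lists of transcription factors, secreted proteins, junction proteins and further markers, 36 genes in all. In Spc, 20 of 35 tested were lower in Smg6-cKO and none higher, with a median log2 fold change of -1.38. Sox8, a relative of Sox9, fell by 2.69, Cst9, a testatin-type cystatin, by 2.70 and Espn, an actin bundler of the Sertoli cell junctions, by 2.76. In RS, 21 of 35 were higher in Smg6-cKO and 4 lower, with a median of 1.08. RS was below Spc for 27 of 34 in CTRL and above it for 3, and in Smg6-cKO 2 of 34 were below and 4 above. In the interaction 24 of 35 were positive and 1 negative, and in CB 5 of 18 were higher and 1 lower. Of all genes tested, 14.1% were lower in Smg6-cKO Spc and 2431 of 17321 higher. In RS 38.4% were higher and 6005 of 17492 lower. RS was below Spc for 39.7% in CTRL and above it for 6169 of 17046. In Smg6-cKO 4684 of 17709 were below and 3354 above. In the interaction 19.0% were positive and 4375 of 18171 negative, and in CB 18.1% were higher and 2589 of 14051 lower.

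The lists were not uniform. None of the 7 tested junction genes was higher in Smg6-cKO RS and 2 were lower, among them Tjp1, a scaffold of tight junctions in many cell types, which fell by 0.84. Amh, a hormone of immature Sertoli cells, was at 0.932 to 1.77 CPM in CTRL Spc and 0.847 to 1.54 CPM in Smg6-cKO Spc and did not pass, with a log2 fold change of -0.31. Nr5a1 had a log2 fold change of 0.11 in Spc and also did not pass. This steroidogenic factor is expressed in Leydig cells too, and it rose by 1.85 in Smg6-cKO RS.

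**Figure D5:**
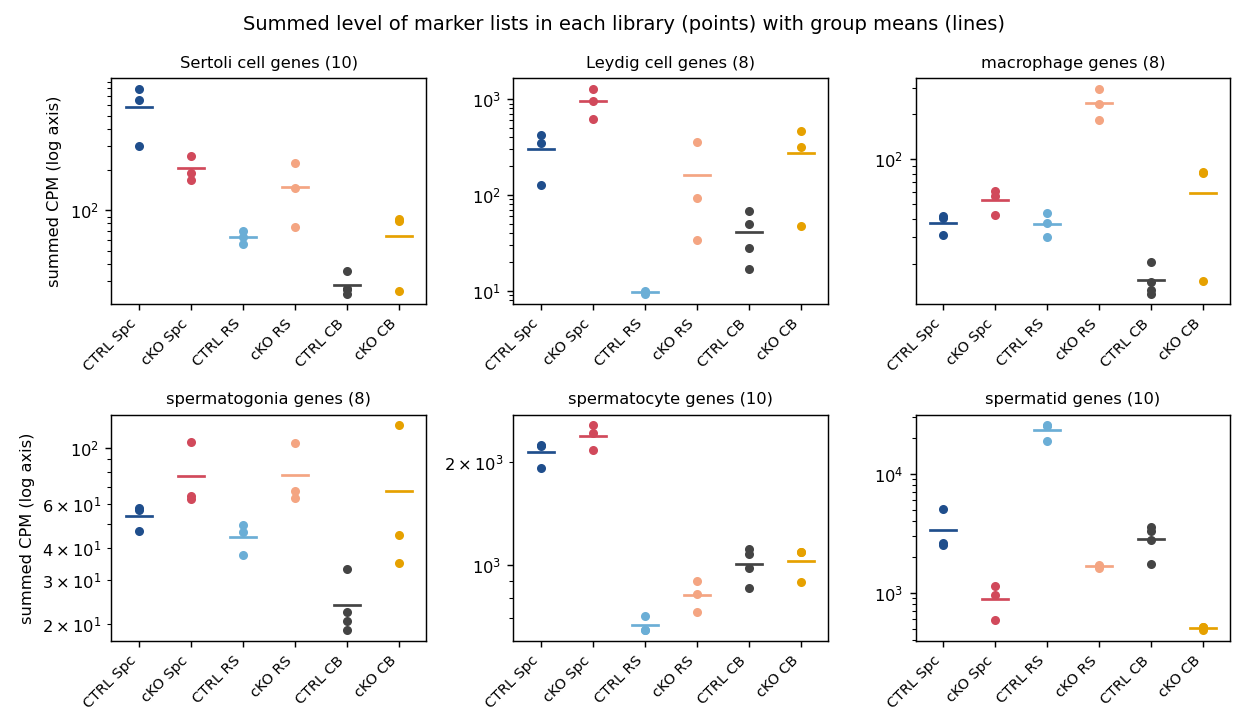
Summed CPM of the 10 Sertoli cell genes and of lists for Leydig cells, macrophages, spermatogonia, spermatocytes and spermatids in every library (points) with group means (lines), on log axes that differ between panels. Leydig cell genes are higher in Smg6-cKO than in CTRL in Spc and in RS, unlike the Sertoli cell genes, which are lower in Smg6-cKO Spc.

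Markers of some other somatic cells also differed between these groups. The summed level of 8 Leydig cell genes, among them Insl3, was 127, 427 and 347 CPM in CTRL Spc and 966, 619 and 1285 CPM in Smg6-cKO Spc. In RS it was 9.32 to 9.93 CPM in CTRL and 93.8, 34.0 and 355 CPM in Smg6-cKO libraries 1, 2 and 3. Leydig cell genes were thus higher in Smg6-cKO in both, with 3 of 8 tested passing in Spc, 7 of 7 in RS and 7 of 7 in CB. For the members, Spc went the other way.

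The 8 macrophage genes, among them Mrc1, summed to 31.2 to 41.6 CPM in CTRL Spc, 42.5 to 60.8 CPM in Smg6-cKO Spc, 30.0 to 43.7 CPM in CTRL RS and 183 to 295 CPM in Smg6-cKO RS. All 8 rose in Smg6-cKO RS. In Smg6-cKO Spc 7 rose, while Mrc1 itself fell by 1.21 on the log2 scale, from 26.3 to 12.2 CPM by group mean (adjusted p = 0.026, edgeR). In Smg6-cKO RS the libraries ranked 3, 1, 2 for the summed Sertoli, Leydig and macrophage genes, but 1, 3, 2 for the erythroid genes and 1, 2, 3 for the spermatogonial genes. In CB the 2 Smg6-cKO libraries with more of the members also held more Leydig cell genes, 314 and 462 CPM against 47.9 CPM in column 2. No gene of the Leydig or macrophage list was at 0 in a Spc or RS group.

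The 5 erythroid genes, among them Hbb-bs, summed to 10.9 to 20.8 CPM in CTRL Spc, 1.58 to 3.40 CPM in Smg6-cKO Spc, 22.5 to 26.2 CPM in CTRL RS and 67.7 to 249.5 CPM in Smg6-cKO RS. The only 1 of 4 tested that was lower in Spc was Alas2, the erythroid enzyme of heme synthesis, at 15.7 CPM in CTRL and 1.07 CPM in Smg6-cKO by group mean, which made up most of the CTRL Spc sum. Hbb-bs was at 0.516 and 0.513 CPM in these groups. In RS the 4 globin genes were higher and Alas2 did not pass, and unlike the members the erythroid genes were higher in RS than in Spc in CTRL for 4 of 5. Hba-a1 and Hba-a2 held identical values in every group, such as 6.52 CPM in CTRL RS, so they amount to 1 measurement. Of 6 peritubular myoid genes, among them Actg2, 1 was lower in Smg6-cKO Spc, and in RS 1 was higher and 2 were lower. Actg2 was lower in both. By group mean it was highest in CTRL RS, as the summed spermatid genes were, at 430 CPM against 80.6 CPM in CTRL Spc. In Smg6-cKO RS it was at 48.8 CPM. Of 6 endothelial genes, among them Vwf, 1 was higher and 1 lower both in Spc and in RS. Vwf was the lower gene in both, at 24.4 CPM in CTRL RS, 6.32 CPM in CTRL Spc and 3.89 CPM in Smg6-cKO RS. Whether Actg2 and Vwf mark these somatic cells here was not tested. Spermatogonial genes, among them Uchl1, were higher in Smg6-cKO for 1 of 8 in Spc and 5 of 8 in RS, where 1, Nanos3, was lower. Spermatocyte genes passed for 1 of 10 in Spc, which was lower, and in RS 5 were higher and 2 lower, and spermatid genes were lower for 4 of 10 in Spc and 10 of 10 in RS. In CB the lists gave 3 of 5 macrophage, 3 of 5 spermatogonial and 0 of 1 erythroid genes higher, and 9 of 10 spermatid, 1 of 10 spermatocyte, 1 of 5 myoid and 1 of 4 endothelial genes lower. The counts of all these lists stand beside the shares of all genes given above for the further Sertoli cell genes. In RS 38.4% of all genes were higher, so 5 of 10 spermatocyte genes is no result about that list by itself. The part of these cells, and of the drop in spermatid genes, in the results for the members was not tested.

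Over the 12 Spc and RS libraries, each member's log2 level correlated with the mean of the 10 at Pearson's r of 0.889 for Gata4 to 0.990 for Sox9. Among 14674 other genes whose normalized counts averaged 50 or more, the 10 whose log2 levels followed that mean best had r of 0.988 to 0.996. They were Mro, Peg10, Klhl23, Slc24a3, Srgap3, Itgb5, Sema3c, Adora1, BC021891 and Sytl4. Mro, maestro, was 1 of the 36 further Sertoli cell genes listed, and the other 9 were in no list. Mro was at 12.3 to 31.2 CPM in CTRL Spc, 3.03 to 5.30 CPM in Smg6-cKO Spc, 2.15 to 2.70 CPM in CTRL RS and 2.32 to 7.58 CPM in Smg6-cKO RS. Each member is part of the mean it was compared with, and the 10 were taken up for a shared pattern, so high r for them was partly built in. The points share their libraries and scaling, and these r values describe likeness of level only.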

How the data were processed

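The authors used cutadapt for trimming, STAR for alignment to GRCm38, and TEtranscripts in reverse stranded mode to count reads of genes and transposable elements. These deposited counts were raw. The authors also deposited estimated counts per Ensembl transcript, from featureCounts with shared pairs split equally, and these were summed per gene, rounded and used as an alternative. Columns of the CB tables could not be tied to sample numbers and were used by group. Gene rows that reached 10 counts in 3 libraries of the comparison were tested with edgeR 4.0.16 (TMM, quasi-likelihood, two-sided, Benjamini-Hochberg over all genes tested) in R 4.3.3, and SE was derived from the log2 fold change and F. Alternatives were DESeq2 1.42.0, library size scaling, no count filter, elements included, transcript counts, a replicate block and each library left out. The tests were checked on simulated counts. Places came from GENCODE vM21. The members and lists were chosen with earlier results of these data known, so the summed level of the members is given without a p-value. The text names all members, the gene of a marker list with the highest level over all libraries, genes a result turns on, and the 10 genes most like the members. From the further Sertoli cell lists, the genes given with values were chosen after their values were seen. Replicate libraries differed by more than sampling noise (chi-square divided by its degrees of freedom, 8.94 to 78.0 over 21 pairs). The series' design text has both testes of 1 mouse giving Spc and RS, while the study's methods give several testes, so p-values measure the spread between these libraries. Whether same-numbered Spc and RS libraries share a mouse is not given in the sources used here, and RS was compared with Spc as if they did not. Small RNA and piRNA tables were not used here.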

Additional observations from a re-analysis of the deposited data

Results flagged for a closer look

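The estimated genotype effect differed between Spc and RS for all 10 members, with an interaction past the threshold in edgeR. This opposite direction was known when the genes were taken up, so the values restate it and are not independent support. On the log2 scale the RS effect minus the Spc effect was 3.72 for Sox9, 3.62 for Wt1, 2.43 for Gata4, 3.76 for Rhox5 and 3.55 for Fshr. It was 2.42 for Dhh, 2.32 for Inha, 3.62 for Inhbb, 2.72 for Clu and 3.38 for Cldn11. Taken alone, the effect of Gata4 in Spc and those of Dhh and Inhbb in RS did not pass, and Fshr was not tested in RS. In CTRL CB, 1 library held Fshr at 0.148 CPM and the other 3 at 0, which stood out in a check of the highest and lowest of the 4 libraries. This value is 1 count. The check was made on 11 groups of values, of which chance would single out about 1 in 20.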

How the results depend on the processing

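Of 714 values of single members under the alternatives, 653 kept their direction and their side of the threshold, 42 no longer passed, 10 newly passed and 9 changed sign. All 9 belonged to RS against Spc in Smg6-cKO, where no member passed. Inha became 0.10 with library size, 0.0027 with DESeq2, 0.017 with no count filter and 0.024 with transcript counts. With 1 library left out Inha lay between -0.29 (without Smg6-cKO RS 3) and 0.37 (without Smg6-cKO Spc 3) and was 0.26 without Smg6-cKO RS 2, Inhbb lay between -0.051 (without Smg6-cKO RS 3) and 0.63, and Cldn11 between -0.32 (without Smg6-cKO RS 3) and 0.40, with -0.16 without Smg6-cKO Spc 1. The cause was not tested. Leaving out 1 library gave 5 to 10 lower members in Spc, 2 to 9 higher in RS, 1 to 3 higher in CB, 9 to 10 lower in CTRL RS against Spc (9 where Fshr fell below the count filter), 0 to 1 lower in Smg6-cKO RS against Spc and 9 to 10 positive interactions. When a log2 fold change of 1.5 was also required, 2 members were higher in RS and 1 in CB. The log2 ratio of the summed level in RS moved from 1.11 to 1.73 with library size.

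With the replicate number as a block, 3 members were higher in RS in place of 7 and 2, Gata4 and Clu, were lower in RS against Spc in Smg6-cKO in place of 0, and the block changed no other count of members by over 1.5 times. Same-numbered libraries did not deviate together throughout, with correlations of -0.05 to 0.22 in Spc and -0.14 to 0.09 in RS. Between cell types they were -0.15 to -0.14 in CTRL and 0.01 to 0.53 in Smg6-cKO. Libraries of different number gave -0.22 to 0.36 in CTRL and -0.45 to 0.21 in Smg6-cKO. In Smg6-cKO, numbers 2 and 3 correlated at 0.53 and 0.28, above every pair of different numbers. The numbers were not taken to pair samples, but for Smg6-cKO these values do not settle it. No paired analysis was possible for CB because its columns carry no replicate number of the labels. In CB, every member other than Clu had at most 53 counts in any library, and small changes were not detectable at this depth.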
